A study of Mus musculus with 18 samples.

Results

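Monocytes sorted from the spleens of Dectin-1 knockout mice given phosphate-buffered saline (PBS) were compared with those of wild-type (WT) mice given PBS, 3 libraries against 3 of the 18 in the series. All 17040 genes that passed a filter on low counts were tested. They were split into Clec7a, the gene of Dectin-1, the 224 tested genes that start within 10 Mb of it on chromosome 6, and the 16815 that start elsewhere. The files list 623 genes within 10 Mb beside Clec7a, so 224 of 623 passed the filter. Libraries were assigned to groups by the labelled genotype and treatment. At the lower edge of the 10 Mb range, Fbxl14 lay just inside, at -9.98 Mb, with a log2 fold change of -0.01, and Adipor2 just outside, at -10.11 Mb, with -0.05. At the upper edge Mgst1 was the last gene inside, at 8.68 Mb, with a log2 fold change of 0.56, and Plekha5 the first outside, at 10.93 Mb, with -0.49.

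The series holds 6 groups of 3 libraries, C57BL/6 WT, Dectin-1 -/- and FcgRIIb-/- mice, each with PBS or with intravenous immunoglobulin (IVIg, pooled immunoglobulin G), all taken on day 3. The design text speaks of 3 independent mice per group, and p-values measure the spread between these libraries. The titles of Dectin-1 knockout PBS replicates 2 and 3 carry 1 shared code whose meaning is not given. The sources used here do not state which part of Clec7a was deleted, how the knockout line was made, or the age and sex of the mice.

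Dectin-1 is a C-type lectin of myeloid cells that binds beta-glucans of fungal cell walls. Its cytoplasmic tail recruits the kinase Syk, which signals through Card9, Bcl10 and Malt1 to NF-kB, and galactosylated immune complexes have been reported to engage it together with the inhibitory Fc gamma receptor IIb. Clec7a stands in a dense run of lectin genes, the natural killer gene complex. There genes of myeloid lectins alternate with the Klr genes, whose products include receptors of natural killer cells and T cells.

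The 6 libraries held 26942006 to 45044859 counts, and 3 counts correspond to 0.0654 to 0.112 CPM in them (CPM, counts scaled to the size of the library). Markers of monocytes such as Csf1r, Lyz2 and Itgam made the tissue check: the summed level of 16 monocyte identity genes was 27675 to 37594 CPM in WT and 31286 to 37393 CPM in knockout libraries. WT PBS replicate 3 stood apart from the other 5 libraries. Its counts differed from theirs by a chi-square per degree of freedom of 152 to 204, against 32.9 to 89.5 among the other pairs, and of all 153 pairs in the series it was most alike to WT IVIg replicate 1 (Spearman correlation 0.988 over genes). Values without it are given beside the results they change. Log2 fold changes were negatively related to the exon length of a gene in the PBS comparison (Spearman rho -0.51 over 5284 well-counted genes), and less so in the same comparison under IVIg (-0.04). The part of this trend in single results was not tested except where a length-corrected value is given.

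Clec7a was nearly absent from the knockout libraries (ENSMUSG00000079293, chromosome 6, 129438554 to 129449742, GRCm39). Its level was 820.3, 522 and 360.1 CPM in the WT PBS libraries and 2.24, 2.36 and 4.05 CPM in the Dectin-1 knockout PBS libraries, from 14959 to 30053 counts and from 74 to 109 counts. The knockout mean of 2.88 CPM ± 1.01 (SD, n = 3) was 0.508% of the WT mean of 567 ± 233 (SD, n = 3), a log2 fold change of -7.65 ± 0.43 (SE) with an edgeR adjusted p of 4.72e-09. Every knockout library lay below every WT library. An exact two-sided permutation test of 3 against 3 libraries gave p = 0.1, the smallest it can give, and over both knockout groups against the other 4 groups p = 5.39e-05, which is also the smallest for its 18564 assignments. The remaining counts were not placed along the gene.

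In the PBS comparison 7 of 17040 genes passed edgeR's test at an adjusted p under 0.05 (0.0411% of all tested genes), 3 higher (0.0176%) and 4 lower (0.0235%) in the knockout. Beside Clec7a they were Hebp1, Klra17 and Emp1, which rose, and Eps8, Klri2 and Gm9574, which fell. Of these 6, 5 start within 10 Mb of Clec7a on chromosome 6, or 2.23% of the 224 genes tested there, against 1 of 16815 elsewhere (0.00595%). At an unadjusted p under 0.05 the counts were 37 of 224 in the window, 16 higher and 21 lower (16.5%), and 262 higher and 390 lower elsewhere (3.88%), against 4.05% of all tested genes (1.63% higher, 2.42% lower). WT PBS replicate 3 left out, 10 genes passed, again 5 in the window, with 4 elsewhere.

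RefSeq gives promoters for 4 of the 7 genes, and the bases before their starts are shown because these genes stand out in level (build GRCm38.p6, another build than that of the counts, each 250 bases 5′ to 3′ on the gene's own strand). They lie at chr6:129472780-129473029 on the minus strand for Clec7a, chr6:129876673-129876922 on the minus strand for Klra17, chr6:135168216-135168465 on the minus strand for Hebp1 and chr6:135362681-135362930 on the plus strand for Emp1, the first listed start of each gene. Capitals mark matches to the motifs searched on both strands, TGANTCA of AP-1, GAGGAAGT of PU.1 and TTGCNNAA of C/EBP factors.
Clec7a: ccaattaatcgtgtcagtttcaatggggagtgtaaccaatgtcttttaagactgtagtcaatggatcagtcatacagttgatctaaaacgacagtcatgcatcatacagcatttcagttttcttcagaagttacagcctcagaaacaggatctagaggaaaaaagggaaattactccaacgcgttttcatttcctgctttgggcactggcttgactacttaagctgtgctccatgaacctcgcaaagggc
Klra17: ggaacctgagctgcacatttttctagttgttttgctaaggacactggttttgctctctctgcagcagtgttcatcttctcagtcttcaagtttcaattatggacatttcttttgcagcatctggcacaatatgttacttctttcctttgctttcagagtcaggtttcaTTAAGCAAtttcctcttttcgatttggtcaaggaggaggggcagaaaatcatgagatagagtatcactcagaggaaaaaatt
Hebp1: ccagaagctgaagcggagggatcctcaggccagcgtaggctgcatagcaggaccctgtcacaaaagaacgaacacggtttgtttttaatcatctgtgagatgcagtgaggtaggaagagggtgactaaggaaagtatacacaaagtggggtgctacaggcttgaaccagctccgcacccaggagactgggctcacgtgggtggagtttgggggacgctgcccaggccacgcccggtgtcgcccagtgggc
Emp1: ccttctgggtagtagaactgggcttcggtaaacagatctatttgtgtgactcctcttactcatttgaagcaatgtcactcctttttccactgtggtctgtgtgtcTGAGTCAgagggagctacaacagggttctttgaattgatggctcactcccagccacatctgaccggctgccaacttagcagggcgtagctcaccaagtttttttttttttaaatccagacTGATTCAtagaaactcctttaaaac
Emp1 held 2 matches to the AP-1 letters, which stand in 6.75% of the 32851 RefSeq promoters of this length, and Klra17 held 1 match to the C/EBP letters, which stand in 9.56%. Clec7a and Hebp1 held none of the 3 motifs in these bases. The letters of PU.1 stand in 2.44% of all promoters. A match describes the letters in these bases.

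Hebp1 codes for a haem-binding protein whose cleaved peptide attracts phagocytes, and it starts 5.68 Mb from Clec7a (ENSMUSG00000042770, chromosome 6, 135114520 to 135175020). It was counted at 1.66, 4.92 and 3.20 CPM in WT and at 71.7, 75.3 and 96.6 CPM in knockout libraries. All knockout libraries were above all WT libraries, the means differing by 24.9-fold, with a log2 fold change of 4.61 ± 0.37 and an edgeR adjusted p of 5.05e-07. Exons of Hebp1 overlap those of Fam234b on the opposite strand, and counting used no strand option. Fam234b was at 17.2, 19.8 and 15.8 CPM in WT and 25.0, 27.6 and 21.9 CPM in knockout, a log2 difference of 0.50 ± 0.30 that did not pass (edgeR adjusted p 0.909). Reads shared between these genes could not be told apart.

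Emp1, an epithelial membrane protein of the PMP22 family, starts 5.90 Mb from Clec7a (chromosome 6, 135339543 to 135360171). Its values were 24.5, 25.8 and 2.48 CPM in WT and 527, 370.2 and 338 CPM in knockout libraries. WT PBS replicate 3 was the lowest WT library, and all 3 knockout libraries were above all WT libraries. The log2 fold change was 4.55 ± 0.52 (edgeR adjusted p 0.00011). It was the most abundant of the genes that rose, with 9092 to 17406 counts in a knockout library.

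Eps8 codes for an adapter that caps and bundles actin filaments, and it starts 8.02 Mb from Clec7a (chromosome 6, 137454243 to 137631874). It was measured at 69.1, 76.7 and 74.4 CPM in WT and 9.23, 5.73 and 3.42 CPM in knockout libraries. The WT libraries lay within a narrow range and all knockout libraries below them, with a log2 fold change of -3.57 ± 0.31 (edgeR adjusted p 3.1e-06).

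Klra17 belongs to the Ly49 family of lectin-like receptors and starts 0.37 Mb from Clec7a (chromosome 6, 129808117 to 129853635). It was at 2.29, 3.18 and 1.78 CPM in WT and 40.2, 32.4 and 37.1 CPM in knockout libraries. The groups did not overlap, and the log2 fold change was 3.91 ± 0.36 (edgeR adjusted p 3.1e-06). Ly49 genes resemble one another: the longest Klra17 transcript of GENCODE M21 aligned to Klra1 at 80.02% identity over 876 of 1190 bases, so part of the counts may come from related genes.

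Klri2, a killer lectin-like receptor of the I subfamily, starts 0.27 Mb from Clec7a. It had 187, 369 and 128 counts in the WT libraries (5.10, 8.04 and 3.08 CPM) and 0 counts in all 3 knockout libraries. Against the floor of 3 counts over the knockout group it was at least 179-fold lower, with an edgeR adjusted p of 0.0196. The fitted log2 fold change depends on the prior count and is not given. Its call was lost in 6 settings, among them the removal of the shallow FcgRIIb library (adjusted p 0.157) and the fit on the 2 PBS groups alone (0.147). The Klri2 transcript aligned to transcripts of 78 other genes, the closest, Klri1, at 95.86% identity over 459 of 3913 bases. Klri1 was at 2.59, 5.08 and 4.60 CPM in WT against 0.182, 0.610 and 0 CPM in knockout libraries, also without overlap (log2 fold change -3.79 ± 0.89, edgeR adjusted p 0.426). Whether reads of the matching bases were shared between these relatives was not tested.

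Gm9574, a gene model on chromosome 17, was the called gene outside the window. It had 228, 30 and 273 counts in WT libraries (6.22, 0.654 and 6.57 CPM) and 9, 9 and 1 in knockout libraries. WT PBS replicate 2 was near the knockout libraries, and the groups did not overlap. The log2 fold change was -4.48 ± 0.84 (edgeR adjusted p 0.025). Its transcript aligned to transcripts of 39 other genes, the closest at 93.87% identity, and its call was lost in 11 settings, with an edgeR adjusted p of 0.115 without WT PBS replicate 3 and 0.212 without WT PBS replicate 1. With a filter of at least 1 CPM in 3 libraries it was not tested, since only WT PBS replicates 1 and 3 reached that level.

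**Figure D1:**
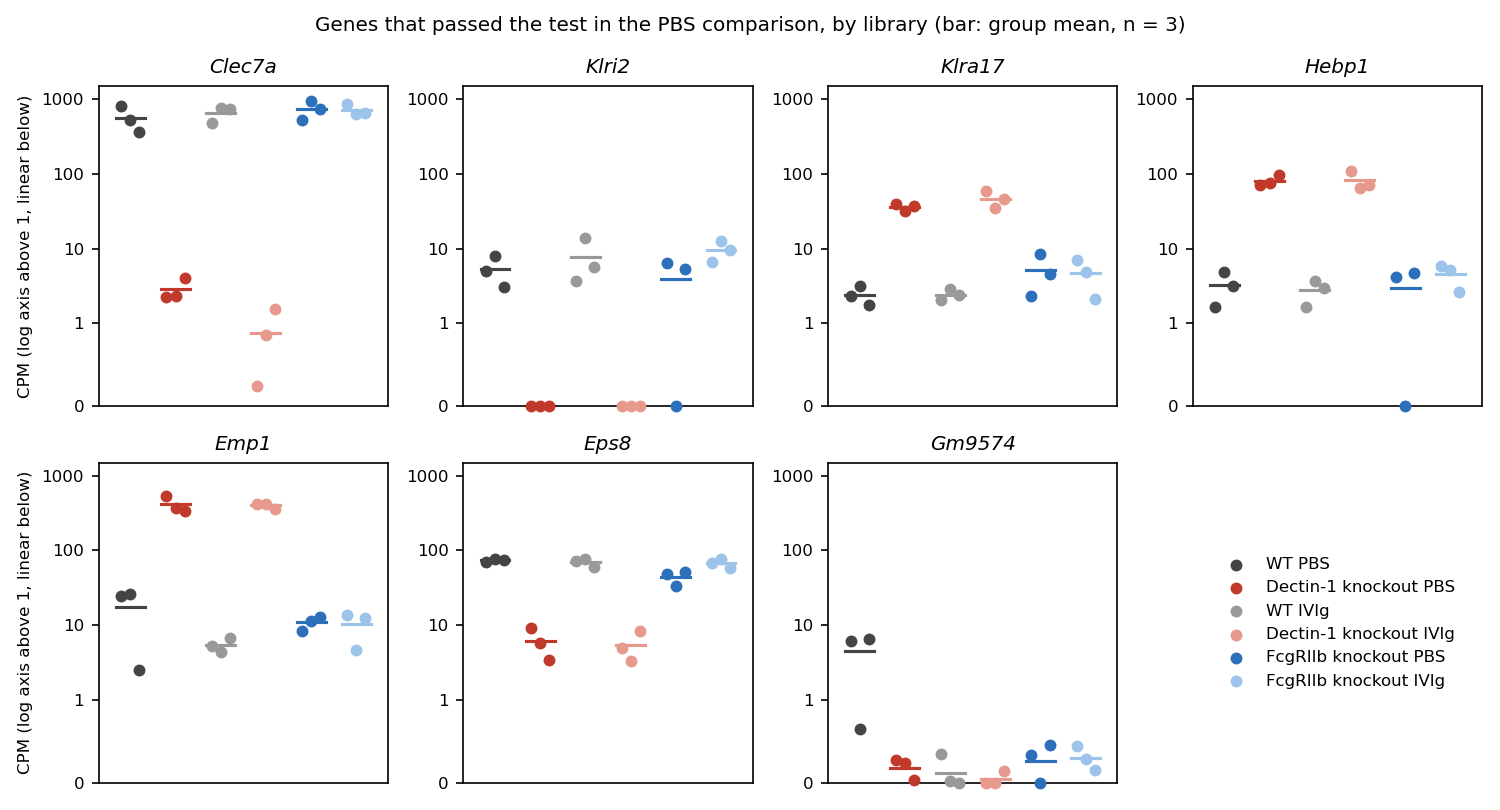
CPM of the 7 genes that passed the test in the PBS comparison, for all 18 libraries by group (points: libraries; bars: means of 3). The vertical axis is logarithmic above 1 and linear below. Hebp1, Emp1 and Klra17 lie high, and Clec7a and Eps8 low, in both knockout groups. Gm9574 is high in WT PBS replicates 1 and 3 alone.

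The called genes of the window were also set out over all 18 libraries. These include the 6 PBS libraries that picked the genes, so part of the separation followed from that choice. Klra17 was at 32.4 to 58.9 CPM in the 6 knockout libraries and 1.78 to 8.46 CPM in the other 12. Hebp1 was at 64.1 to 110.1 CPM against 0 to 5.86, and Emp1 at 338 to 527 against 2.48 to 25.8. Eps8 was at 3.35 to 9.23 against 33.9 to 77.4 CPM. None of these 4 genes had a knockout library within the range of the others. Klri2 was at 0 in all 6 knockout libraries and at 0 to 13.9 in the others, the value of 0 being that of the shallow FcgRIIb library.

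Among the other genes close to Clec7a, the groups often did not overlap while the test was not passed. Within 1 Mb, 42 genes were tested, of which 2 passed (4.76%, Klri2 and Klra17) and 17 had an unadjusted p under 0.05, 14 of them lower in the knockout. Their median absolute log2 fold change was 1.30, against 0.30 outside that distance. Fold changes of 1 or more on the log2 scale, in either direction, were seen in 25 of 42 (59.5%), against 13.3% outside it. Groups did not overlap for 23 of 42 (54.8%), against 16.2% outside and 16.3% of all tested genes (7.92% higher, 8.4% lower). The 42 genes were not matched in level to those outside. Some were low, such as Klrb1b and Klrb1c, with WT PBS means of 1.39 and 1.47 CPM. Gm44223 had no counts outside the Dectin-1 knockout groups, so it passed the filter through these groups alone.

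Next to Clec7a, Clec9a, the dead-cell receptor of cross-presenting dendritic cells, was at 10.7, 6.65 and 8.62 CPM in WT and 5.63, 2.39 and 2.68 CPM in knockout (log2 fold change -1.27 ± 0.42, edgeR adjusted p 0.909). All knockout libraries lay below all WT libraries, and Clec1b, a receptor of platelets, had the same arrangement at 1.11 to 2.05 CPM against 0.212 to 0.969. Clec12a, an inhibitory receptor of myeloid cells and the best-counted lectin there after Clec7a, was at 462, 271 and 195 CPM in WT against 439, 445 and 410.4 in knockout, with overlap. Olr1, a scavenger receptor for oxidised lipoprotein, had a log2 fold change of -0.74 ± 0.42 and Gabarapl1, an autophagy protein, of 0.06 ± 0.24. Cd69, an activation marker of lymphocytes, was at 5.73, 4.45 and 4.45 CPM in WT and 10.4, 11.3 and 6.69 CPM in knockout, higher in each (log2 fold change 0.97 ± 0.31, edgeR adjusted p 0.909). Of 11 tested lectins of this cluster 1 passed, Clec7a itself, with 3 above and 8 below 0 and a median of -0.34, which was -0.07 without WT PBS replicate 3.

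Low values were common among the Klr genes. Of 16 tested killer lectin-like receptors 1 passed higher (Klra17) and 1 lower (Klri2), 7 had an unadjusted p under 0.05 in the lower direction (2.42% of all tested genes did), and the median log2 fold change was -1.59, against -0.02 over all tested genes. Without WT PBS replicate 1 that median was -0.96, and without WT PBS replicate 3 it was -1.21. Klrk1, the gene of NKG2D, was at 20.7, 19.9 and 15.9 CPM in WT and 9.14, 7.43 and 6.88 CPM in knockout libraries (log2 fold change -1.27 ± 0.32, edgeR adjusted p 0.565). The groups were apart in Klrk1, and in Klrb1b at 1.56, 2.0 and 0.602 CPM against 0.0303, 0.0531 and 0 (-5.35 ± 1.14, edgeR adjusted p 0.274). Klrd1, the CD94 partner of NKG2 receptors, overlapped between groups at 8.45 to 14.6 CPM against 3.42 to 9.54 CPM. The most abundant member, Klra2, was at 276, 234 and 312 CPM in WT and 371, 218 and 293 CPM in knockout. Natural killer markers outside chromosome 6 summed to 214 to 332 CPM in WT and 269 to 298 CPM in knockout libraries, overlapping, with 7 of 13 above 0. Much of that sum was S1pr5 alone, at means of 123 CPM in WT and 158 CPM in knockout libraries. Gzma had means of 0.907 and 1.69 CPM and Txk of 0.258 and 0.111 CPM. What the sum says of natural killer cells was not tested. In sorted bulk samples, fewer cells of a type and less RNA per cell cannot be told apart.

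Farther along the window the second lectin cluster, that of Dectin-2, showed no called gene. It starts 6.18 to 6.54 Mb before Clec7a, and its 8 tested genes had a median log2 fold change of 0.15, 5 above and 3 below 0. Clec4n, the gene of Dectin-2, was at 7.53, 14.1 and 10.8 CPM in WT and 11.7, 9.87 and 13.8 CPM in knockout libraries, with overlap. Clec4e, the gene of Mincle, had a log2 fold change of -0.23 ± 0.26. Clec4a1 was at 327 to 413 CPM in WT and 436 to 474 CPM in knockout libraries without overlap (0.32 ± 0.25, edgeR adjusted p 0.909).

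**Figure D2:**
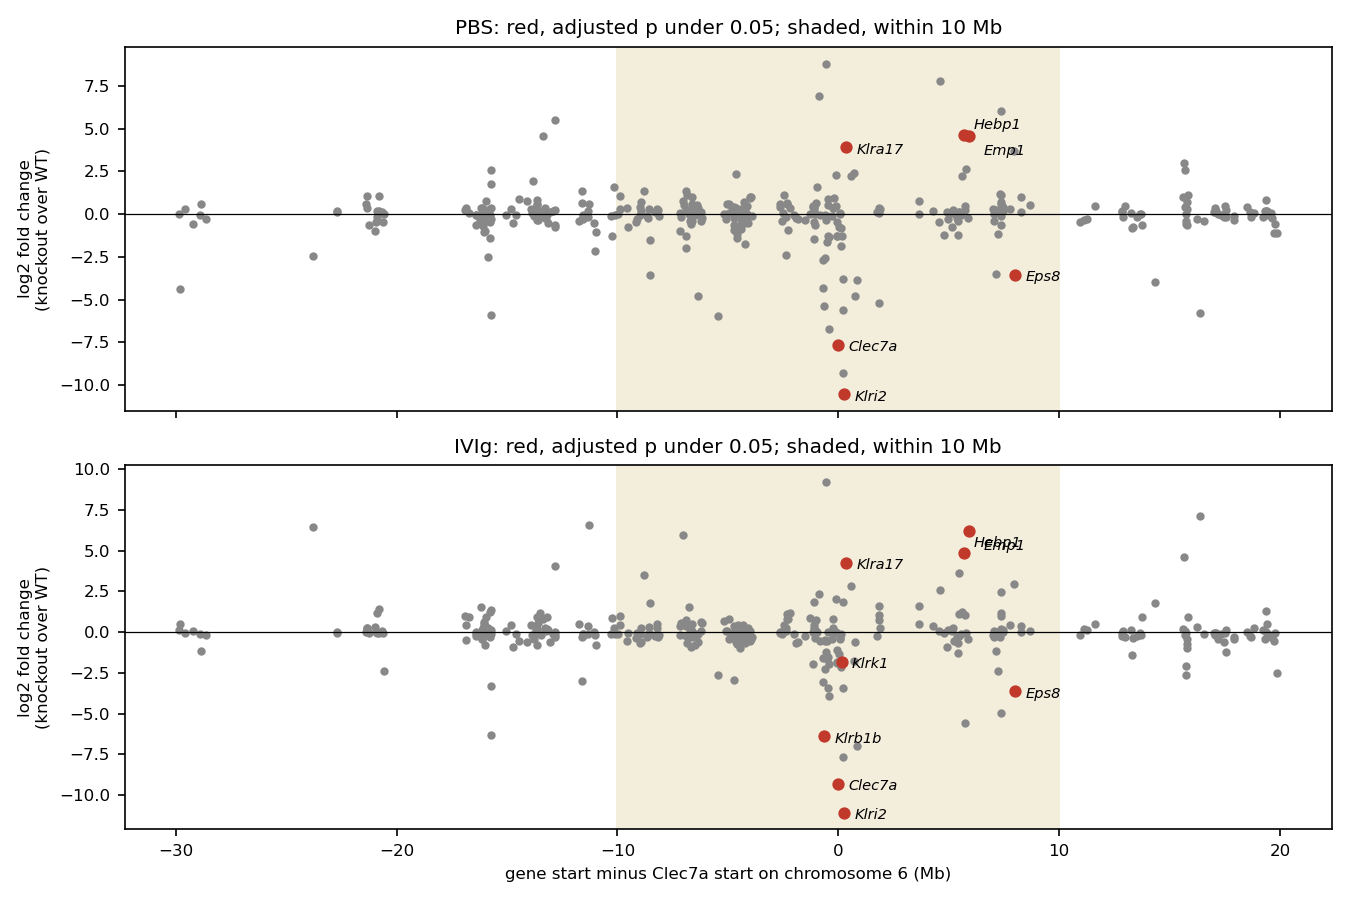
Log2 fold change of tested genes on chromosome 6 against the distance of their start from that of Clec7a, in PBS (top) and IVIg (bottom) libraries. Red points passed the test, and the shaded band is the 10 Mb window. In PBS the called genes other than Clec7a lie between 0.27 and 8.02 Mb, on 1 side of Clec7a.

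**Figure D3:**
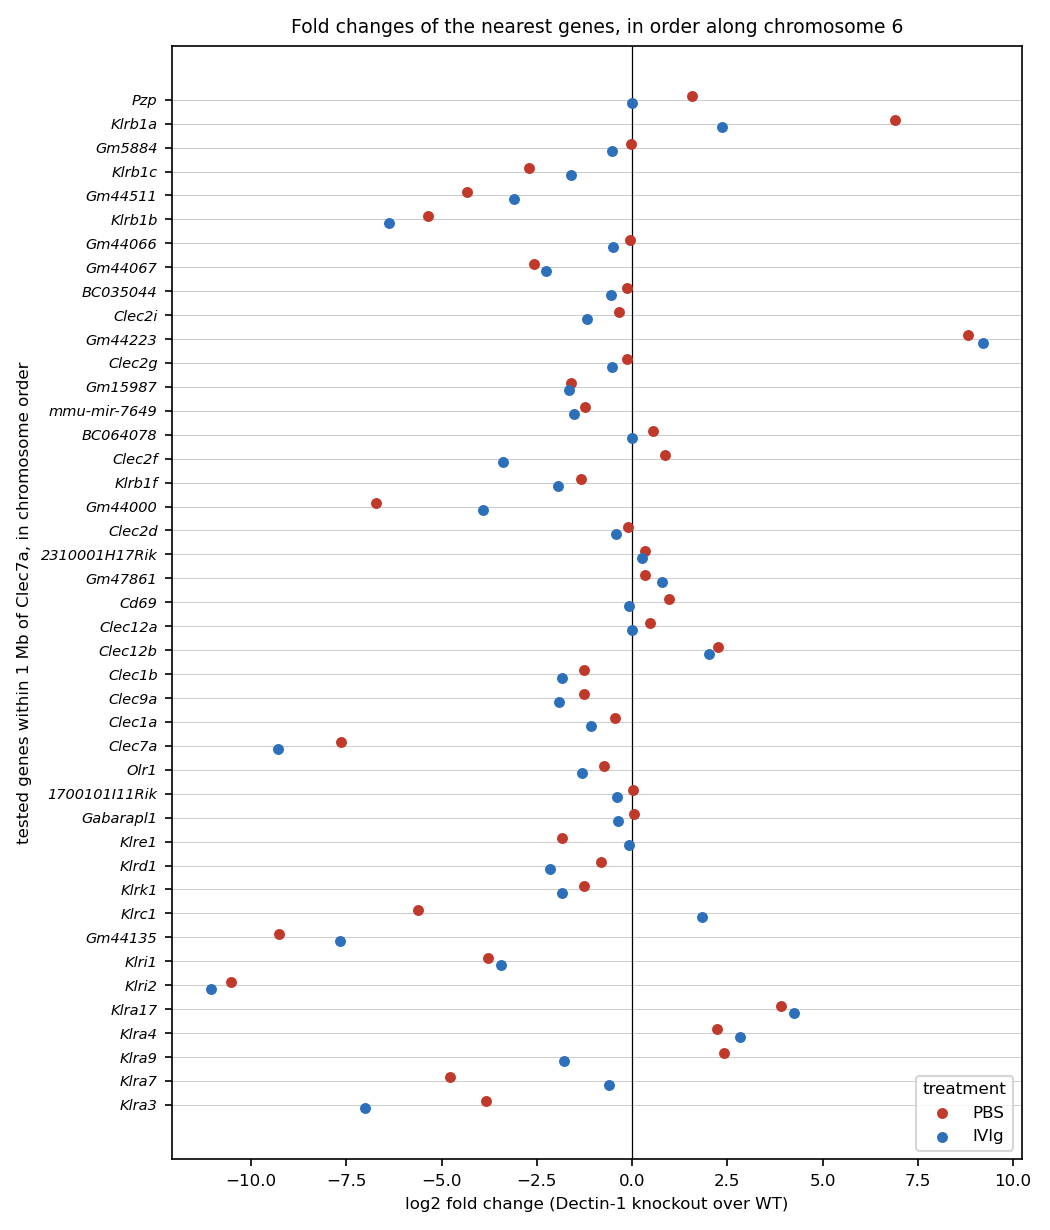
Log2 fold changes of the 43 tested genes within 1 Mb of the start of Clec7a, itself included, in the order of their starts, for PBS and IVIg. Among others, Klri2, Gm44135, Klrb1b and Klri1 lie far to the left and Gm44223 and Klra17 to the right in both treatments.

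The same genotypes were also compared under IVIg, in 6 other mice that share no library with the PBS groups. There 9 of 17040 genes passed (0.0528%), 4 higher (0.0235%) and 5 lower (0.0293%), with 7 of the 224 in the window (3.12%) and 1 elsewhere, Retnlg on chromosome 16. The 5 window genes called in PBS were also called there, with log2 fold changes of 4.85 ± 0.38 for Hebp1, 6.20 ± 0.58 for Emp1, -3.64 ± 0.32 for Eps8 and 4.24 ± 0.36 for Klra17. The other 2 window genes were Klrb1b and Klrk1, which did not pass in PBS. No gene passed edgeR's test of a difference between the treatments in the effect of genotype (0 of 17040, 0%), with 639 at an unadjusted p under 0.05 (3.75%) and 1 called by DESeq2.

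Across genes, the 2 comparisons had the same sign for 136 of 224 window genes (60.7%) and for 49.3% elsewhere. Of the 58 window genes whose PBS log2 fold change was 1 or more in size, 45 had the same sign under IVIg (77.6%), against 53.6% of the 2221 such genes elsewhere. Pearson's r was 0.68 in the window and 0.08 elsewhere (Spearman 0.41 and 0.02), as a description over 224 and 16815 genes that share depth and the fit. In 21 window genes (9.38%) the knockout and WT libraries did not overlap in both treatments and differed in the same direction, 7 higher and 14 lower, against 50 elsewhere (0.297%). Under IVIg alone 6.22% of all tested genes had no overlap. The 21 include the 5 called genes and, among the higher ones, Fam234b and H2aj. Among the lower ones are Klri1, Klrk1, Klrb1b, Klrb1c, Klrb1f, Clec9a and Clec1b. Some of the 21 overlap in position: Fam234b with Hebp1, Gm44511 with Klrb1b and Klrb1c, mmu-mir-7649 with Gm15987, and a gene without a symbol with H2aj. A read counted for each gene it overlapped, so the 21 can hold the same reads more than once. Gm44223, a gene model 0.54 Mb before Clec7a, was at 0 in all WT libraries of both treatments and at 0.515 to 2.79 CPM in the 6 knockout libraries.

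**Figure D4:**
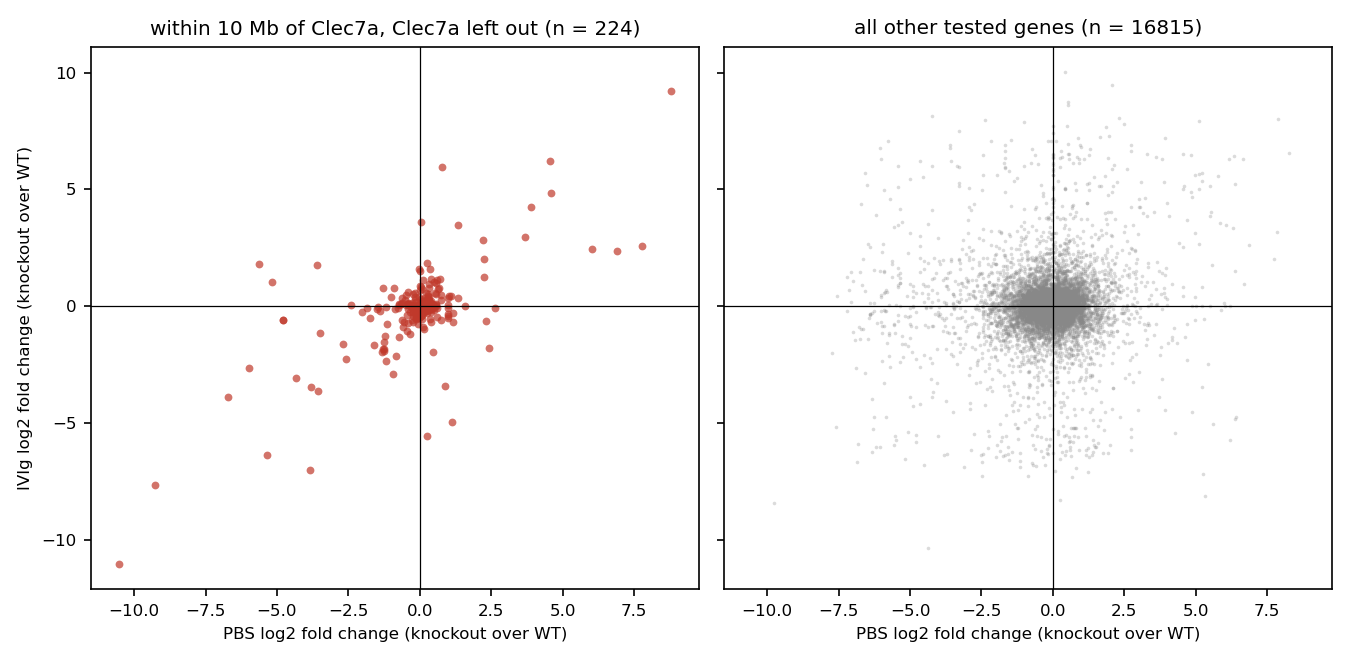
Log2 fold change of the knockout over WT in PBS (horizontal) and IVIg (vertical), for the 224 tested genes within 10 Mb of Clec7a (left) and the 16815 other genes (right). Window genes of large fold change lie mostly in the lower left and upper right corners, and the other genes form a round cloud.

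Elsewhere in the genome, the genes of smallest p after Gm9574 did not pass. Wdfy1, an adapter of Toll-like receptors, was at 50.6, 46.7 and 11.1 CPM in WT and 3.51, 5.17 and 6.84 CPM in knockout libraries (log2 fold change -2.82 ± 0.58, edgeR adjusted p 0.159). WT PBS replicate 3 was between the other WT and the knockout libraries. Without it the gene passed (edgeR adjusted p 0.0119), as it did in 6 settings in all. The WT libraries of both treatments split into a high and a low side at Wdfy1 (see Other observations). Leaving out WT PBS replicate 3 kept only WT PBS libraries of the high side. Slamf9, a SLAM family receptor, was at 8.32, 10.4 and 5.92 CPM in WT and 14.6, 22.6 and 25.6 CPM in knockout libraries (1.34 ± 0.31, edgeR adjusted p 0.426). Sh2d1b1, the adapter EAT-2, had a log2 fold change of 1.02 ± 0.27, and Camk2b, a calcium-dependent kinase subunit, of -3.26 ± 0.82. Egr1, an immediate early transcription factor, was at 1.74 to 6.02 CPM in WT and 0.292 to 0.520 CPM in knockout libraries, and Gpr146, an orphan receptor, at 30.9 to 76.1 against 18.1 to 24.4 CPM. In each of these genes the PBS groups did not overlap, as in 16.3% of all tested genes. Under IVIg Egr1 went the other way, higher in the knockout without overlap (2.25 ± 0.73). Slamf9 had 0.19 ± 0.30 there, Gpr146 0.07 ± 0.29 and Sh2d1b1 -0.24 ± 0.27. Wdfy1 and Camk2b stayed lower, at -1.76 ± 0.57 and -1.97 ± 0.73, with overlap. None of these genes passed under IVIg.

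Fc gamma receptor genes had no member that passed, of 6 tested, 4 above 0, with a median of 0.31. Over the alternative settings that median ranged from 0.16 to 0.39. Fcgr4, an activating receptor for immunoglobulin G, was at 74.1, 123 and 94.8 CPM in WT and 187, 191 and 189 CPM in knockout libraries. All knockout libraries lay above all WT libraries (log2 fold change 0.96 ± 0.38, edgeR adjusted p 0.909). Fcgrt, the neonatal Fc receptor, had the same arrangement (0.58 ± 0.24), and so had Fcer1g, the common signalling chain (0.66 ± 0.32). These 3 of 6 were higher without overlap, against 7.92% of all tested genes. Fcgr2b was at 208, 302 and 299 CPM against 219, 211 and 229 CPM, and Fcgr3 and Fcgr1 had log2 fold changes of 0.03 ± 0.23 and -0.04 ± 0.25. Under IVIg 3 of 6 lay above 0, with a median of -0.03. There Fcgr4 had -0.45 ± 0.38, Fcgrt -0.25 ± 0.24 and Fcer1g 0.07 ± 0.32, each with overlap.

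Among non-classical monocyte markers 23 of 28 tested lay above 0, with a median log2 fold change of 0.38, and none passed. The markers with no overlap numbered 13, all higher (7.92% of all tested genes were higher without overlap), and 8 had an unadjusted p under 0.05, where 1.63% of all genes did in that direction. Eno3, an enolase, was at 89.2, 111 and 93.7 CPM in WT and 206, 239 and 282 CPM in knockout libraries (1.30 ± 0.35, edgeR adjusted p 0.713). Ear2, an eosinophil-associated ribonuclease, was at 206, 209 and 135 CPM against 489, 411 and 484 CPM (1.33 ± 0.38), and Cd36, a scavenger receptor, had 1.36 ± 0.43. Fitted on the PBS groups alone, Eno3 and Ear2 passed (edgeR adjusted p 0.021 and 0.0453). The median was 0.37 without WT PBS replicate 3 and 0.31 with the length trend removed, and under IVIg 3 of 28 lay above 0, with a median of -0.31. Classical markers had a median of -0.05, 9 of 21 above 0; Chil3 was at 6571, 3163 and 1139.6 CPM in WT and 2403, 1496 and 1573 CPM in knockout libraries, with overlap.

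Genes of the Dectin-1 pathway beyond the receptor had no call. Of 27 kinases and adapters 4 lay above and 23 below 0, with a median of -0.16, and the counts were 10 and 17 with the length trend removed and also without WT PBS replicate 3. Syk, the kinase that Dectin-1 recruits, was at 479.6, 628 and 959 CPM in WT and 419, 478 and 390.0 CPM in knockout libraries. The knockout values were below all WT values (log2 fold change -0.68 ± 0.38, edgeR adjusted p 0.909), and the highest was WT PBS replicate 3. Traf2 had -0.54 ± 0.23 and Pik3ap1, the adapter BCAP, 0.48 ± 0.22. The 12 transcription factors had a median of -0.20, 3 above 0. Of 17 listed cytokines and enzymes that the pathway induces 10 could be tested, 1 above 0, with a median of -0.46. Il23a, Cxcl1, Cxcl2 and Csf2 were at 0 in all 6 libraries. Under IVIg the medians were -0.07 for kinases and adapters, 0.01 for transcription factors and 0.30 for the induced genes. There 11 of 27, 8 of 12 and 7 of 10 lay above 0, and Syk had 0.36 ± 0.38 with overlap.

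Most members of 3 other lists lay on 1 side of 0 without a call. All 59 respiratory chain genes lay above 0 (47.7% of all tested genes did), with a median of 0.45. Of the 59, 48 were higher without overlap, against 7.92% of all tested genes. Under IVIg 46 of 59 lay above 0, with a median of 0.08. Ndufa5, a subunit of complex I, was at 9.31, 8.17 and 6.79 CPM in WT and 17.5, 16.7 and 17.7 CPM in knockout libraries (1.10 ± 0.42, edgeR adjusted p 0.909). With the length trend removed 58 of 59 lay above 0, with a median of 0.31. Of 30 cell cycle genes 26 lay above 0 (median 0.44, and 0.17 under IVIg), such as Ccnb2, a mitotic cyclin, at 1.01, 1.31 and 0.770 against 1.79, 4.64 and 5.54 CPM. Unfolded protein response genes lay below 0 in 18 of 22 (median -0.20, and 0.03 under IVIg), such as Edem1, at 329, 324 and 302 against 243, 240.2 and 219.9 CPM.

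Markers of other cell types were present at different levels. Dendritic cell markers summed to 1490 to 1633 CPM in WT and 1433 to 1509 CPM in knockout libraries, red pulp macrophage markers to 773 to 1004 against 916 to 1147 CPM, and plasma cell markers to 615 to 686 against 580 to 686 CPM, each with overlap. T cell markers summed to 42.6 to 64.4 CPM in WT and 22.04 to 38.1 CPM in knockout libraries, and 20 of 24 lay below 0 (median -0.94, -0.70 without WT PBS replicate 3, and 0.45 under IVIg). A large part of that sum was Cd4, at 11.6, 24.1 and 21.8 CPM in WT and 8.23, 13.5 and 3.64 CPM in knockout libraries. Cd4 is itself a window gene, at -4.60 Mb from Clec7a, and without it the T cell median was -0.91. Erythroid markers summed to 9.01 to 15.2 against 17.9 to 22.04 CPM, with Epb42 and Hemgn at 0 in all 6 libraries. B cell markers summed to 249.5 to 323 against 324 to 429 CPM, most of it Ighm, the immunoglobulin M heavy chain, at means of 212 and 307 CPM with overlap. Over the list 10 of 16 lay above 0, with a median of 0.09, which, leaving out each PBS library in turn, ranged from -0.21 without WT PBS replicate 1 to 0.80 without WT PBS replicate 3. Ebf1, a B cell transcription factor, had -3.47 ± 1.59 (edgeR adjusted p 0.909), with 63 of its counts in WT PBS replicate 3 and 0 to 10 in the other 5 libraries. Neutrophil markers overlapped, at 245 to 299 against 276 to 295 CPM. Their part in the results above was not tested.

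**Figure D5:**
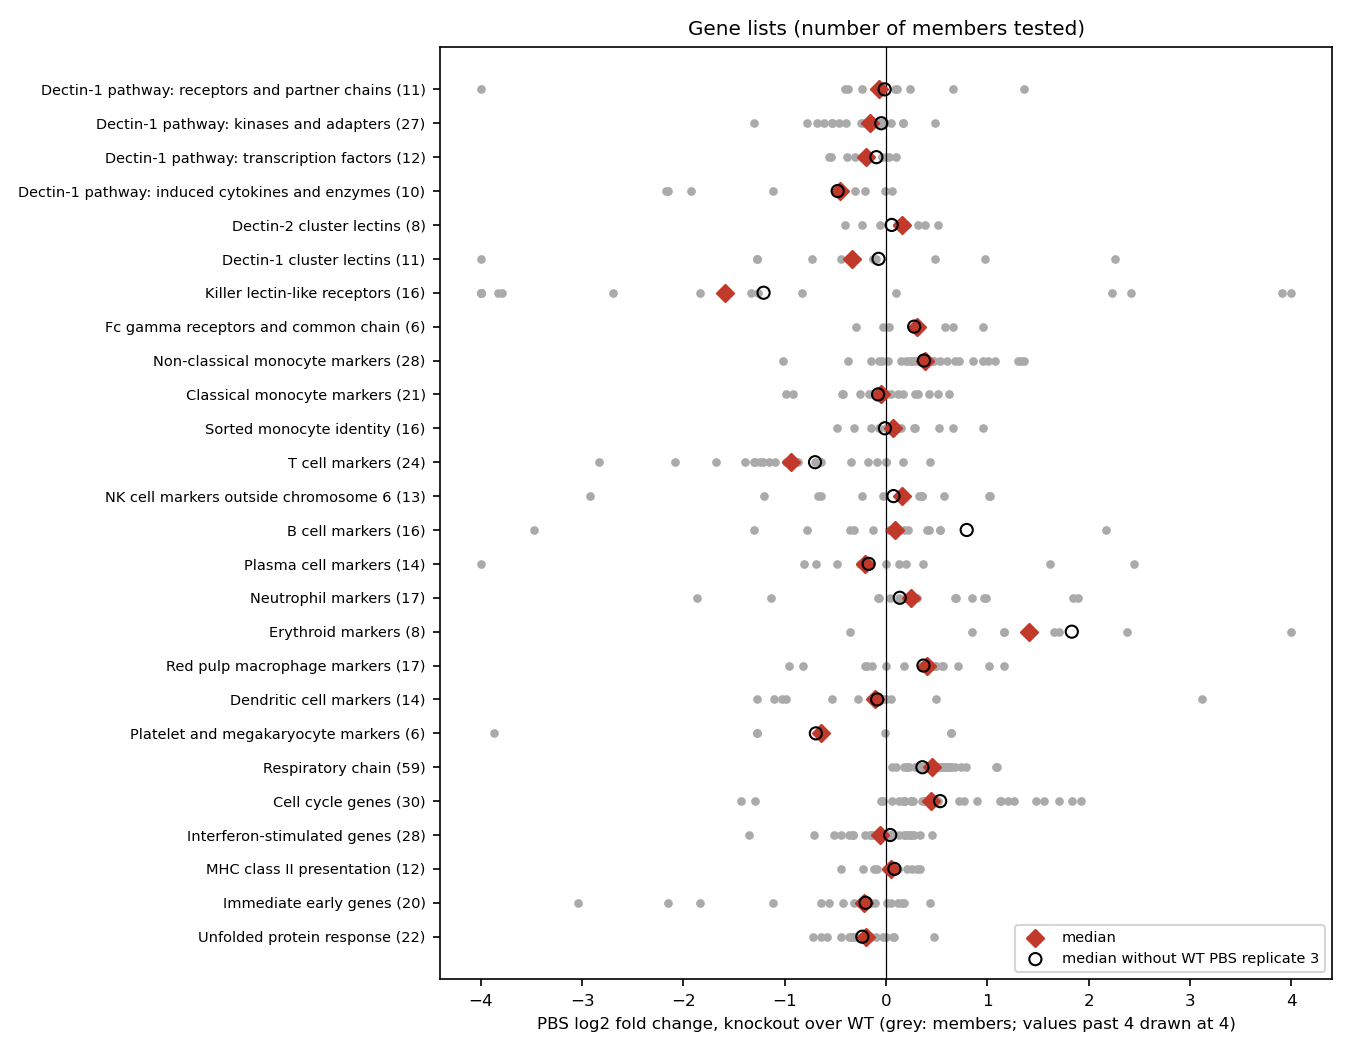
Log2 fold changes in the PBS comparison of the tested members of 26 gene lists (grey), with the median over all 6 libraries (red diamond) and without WT PBS replicate 3 (open circle). Values past 4 are drawn at 4. Killer lectin-like receptors have the lowest median and erythroid markers the highest.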

How the data were processed

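Libraries of sorted mouse spleen monocytes were prepared with a kit that keeps the strand of messenger RNA, as the labels' protocols state. The submitters' processing notes name STAR and the build GRCm39. The authors deposited raw counts per gene, and per the file headers these came from featureCounts 2.0.2 with the genes of Ensembl release 104. The command in the header let a read count for each gene it overlaps and set no strand option. The table holds 55416 genes (1492 without a symbol), and 18 of its columns match no sample given here and stayed out.

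Genes kept by filterByExpr (17040) were scaled by TMM. The quasi-likelihood test of edgeR 4.0.16 in R 4.3.3 was applied to a single model of all 18 libraries, leaving 12 residual degrees of freedom. Adjusted p-values are Benjamini-Hochberg values from edgeR over all tested genes, and a gene passed, or was called, under 0.05. CPM are on TMM-scaled library sizes, log2 CPM have a prior count of 2, and errors of fold changes are standard errors. Replicate numbers follow accession order. Named genes were the called genes, the neighbours of Clec7a, the genes of smallest p inside and outside the window, and up to 3 members per list. Fam234b, Klrb1f, H2aj, Klra2, Gm44223, Retnlg, Lrmp, Nnt and Casc1 were named after their values were seen. The members and lists were chosen with earlier results of these data known. The test was tried on simulated counts with known changes. Alternatives were DESeq2 1.42.0, limma 3.58.1 voom, other filters, scalings, windows and groups, a gene length correction, and left-out libraries. Transcripts were compared by blastn within GENCODE M21. Plots were made with matplotlib 3.10.9.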

Additional observations from a re-analysis of the deposited data

How the results depend on the processing

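Clec7a, Hebp1, Emp1, Eps8 and Klra17 were called in every setting run, and no called gene changed direction. Depth limits low genes: 3 counts are 0.0654 to 0.112 CPM. No paired analysis was possible because the replicate numbers follow accession order and the labels carry none. For the PBS comparison, against 7 called genes (5 in the window, 1 elsewhere), DESeq2 gave 14 (9 and 4), voom 12 (8 and 3), and no low-count filter gave 2 elsewhere, own groups only 4, and the stricter filter and the legacy fit 0. A 5 Mb window held 2 called genes and left 4 elsewhere. Leaving out each library in turn gave 5 to 10, 4 to 5 and 0 to 4 genes. Elsewhere these were 4 without WT PBS replicate 3, 3 and 2 without WT IVIg replicates 2 and 3, and 0 without WT PBS replicate 1, Dectin-1 knockout PBS replicates 2 or 3, or Dectin-1 knockout IVIg replicate 3. Leaving out WT PBS replicate 3 and WT IVIg replicate 1, an alternative added after seeing the data, gave 16 genes, 10 elsewhere. Under IVIg, against 9 (7 and 1), DESeq2 gave 23 (12 and 10), no filter 16 and 7 elsewhere, own groups only 5 (4 and 0), the legacy fit 0 elsewhere, the shallow library left out 2, the length trend removed 2, a 5 Mb window 4 and 4, and the added alternative 0; leaving out each library gave 6 to 28, 5 to 7 and 0 to 22, the 28 without Dectin-1 knockout IVIg replicate 3. The change of the genotype effect with treatment had 0 called genes throughout except 1 with DESeq2. The causes were not tested, beyond fewer samples in the left-out fits.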

Other observations

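Some genes split the WT libraries themselves. Lrmp, on chromosome 6 at 15.6 Mb beyond Clec7a, was at 18.6, 18.1 and 93.3 CPM in the WT PBS libraries, 114, 21.9 and 83.9 CPM in the WT IVIg libraries and 73.1 to 99.0 CPM in the 6 Dectin-1 knockout libraries. Casc1, its neighbour, was at 0, 0 and 2.29 CPM in WT PBS, 3.21, 0.573 and 2.68 CPM in WT IVIg and 1.28 to 6.77 CPM in the knockout libraries. Nnt, the mitochondrial transhydrogenase, is listed as 2 gene models with near-equal counts, and 1 of them was at 54.7, 52.7 and 14.3 CPM in WT PBS, 17.5, 48.5 and 25.3 CPM in WT IVIg and 13.8 to 23.6 CPM in the knockout libraries. In Lrmp, Casc1 and Nnt, WT PBS replicates 1 and 2 and WT IVIg replicate 2 lay on 1 side of the other WT libraries. Wdfy1 had the same arrangement, at 50.6, 46.7 and 42.2 CPM in these libraries and 5.97 to 12.6 CPM in the other WT libraries.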
